A study of Mus musculus with 30 samples.

Results

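The genes described here are the 94 genes of mouse chromosome 6 that start in a stretch of 11 Mb (GRCm38; first member Klra6 at 130.01 Mb, last Aebp2 at 140.62 Mb) and carry a symbol on the arrays, of 21367 genes with a symbol in all. They were chosen on genotype differences in these same arrays, because such differences cluster in this stretch, and 3 other genes of the stretch were left out by the same rule. Of the 94 members, 57 were well above background on every array of at least 1 group, and 39 were above background on no more than 5 of the 30 arrays. RNA from hippocampus and from brain without hippocampus of 15 mice was hybridised to 1-colour Agilent arrays. The mice were 15 to 20 months old, were perfused with PBS after CO2, and are all labelled C57BL/6j. The 75th percentile of intensity was 454 to 824 on hippocampus arrays and 841 to 1636 on brain arrays, and 52.6% to 62.5% of probes were well above background. The hippocampus array of 1 3xTgAD-BKO male (replicate 0) stood apart with 432 spots marked as outliers by the scanner software, against 102 to 160 on all other arrays, and had the highest 75th percentile in that tissue. The females were 3 WT, 2 JHT, 2 3xTgAD and 2 3xTgAD-BKO mice, and the males were 3 3xTgAD and 3 3xTgAD-BKO mice. JHT mice carry a deletion of the immunoglobulin heavy-chain joining segments and make no mature B cells. The 3xTgAD mice, a model of Alzheimer's disease, carry mutant APP and tau transgenes among their alleles, and 3xTgAD-BKO mice come from a cross of 3xTgAD with JHT, so they carry both sets of alleles. The methods call the 3xTgAD mice congenic and name a stock of mixed B6 and 129 origin for them. For JHT they name a B6 stock with a 129-derived deletion. Which parental alleles each mouse carried in this stretch was not tested.

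Genes that lie close together on a chromosome tend to be inherited together, unless recombination parts them. This stretch holds 3 gene clusters, namely the Klra genes for lectin receptors of natural killer (NK) cells, the Tas2r genes for bitter taste receptors and a group of salivary proline-rich proteins. Beyond the clusters lie single genes with broad roles, among them Cdkn1b, Lrp6, Strap, Eps8 and Wbp11. An array probe reads only a short piece of a transcript, so that probes of the same gene can give different answers.

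Members that separated 3xTgAD mice from all other mice lay in the distal part of the stretch, with other members between them. In hippocampus, 4 of the 49 members above background in either group had no overlap between the 5 3xTgAD mice and the 10 other mice and a difference of at least 1 log2 unit, namely BC049715, Pde6h, Strap and Dera. The same held for 0.549% of all genes with a symbol. Outside the hippocampus it held for 4 of 52 members, namely BC049715, Strap, Dera and Pik3c2g, against 0.611% of genes. From the first of these genes to the last is 2.79 Mb, a piece that holds 18 members, 16 of them above background in a group. BC049715, Pde6h and Pik3c2g passed the background filter here only through the side on which they were high. Nothing is read from these shares, since the same contrast chose the stretch.

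Wbp11 and BC049715 are neighbours that point away from each other, with RefSeq start sites 627 bases apart on opposite strands. Strap lies further along and was lower in 3xTgAD mice by the brighter of its 2 probes. The promoter windows of these 3 genes (250 bases before to 50 after the start, RefSeq, GRCm38.p6) are shown. They were picked because Wbp11 and BC049715 are neighbours that were both higher in 3xTgAD hippocampus and Strap was lower in both tissues by that probe. Capitals mark matches to the CCAAT box, searched as CCAAT on both strands. Wbp11 is at chr6:136828167-136828466 on the minus strand, BC049715 at chr6:136828593-136828892 on the plus strand and Strap at chr6:137734832-137735131 on the plus strand.
Wbp11: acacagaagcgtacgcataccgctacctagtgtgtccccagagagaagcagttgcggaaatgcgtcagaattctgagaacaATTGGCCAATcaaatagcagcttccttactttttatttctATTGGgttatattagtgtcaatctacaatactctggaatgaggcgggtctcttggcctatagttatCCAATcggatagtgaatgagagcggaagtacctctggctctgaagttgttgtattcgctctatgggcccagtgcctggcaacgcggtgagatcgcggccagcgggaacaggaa
BC049715: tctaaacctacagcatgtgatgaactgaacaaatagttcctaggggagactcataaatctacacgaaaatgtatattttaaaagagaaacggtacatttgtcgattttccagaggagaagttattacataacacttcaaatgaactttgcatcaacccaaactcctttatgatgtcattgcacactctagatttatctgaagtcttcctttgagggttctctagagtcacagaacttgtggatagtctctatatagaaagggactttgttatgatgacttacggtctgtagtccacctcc
Strap: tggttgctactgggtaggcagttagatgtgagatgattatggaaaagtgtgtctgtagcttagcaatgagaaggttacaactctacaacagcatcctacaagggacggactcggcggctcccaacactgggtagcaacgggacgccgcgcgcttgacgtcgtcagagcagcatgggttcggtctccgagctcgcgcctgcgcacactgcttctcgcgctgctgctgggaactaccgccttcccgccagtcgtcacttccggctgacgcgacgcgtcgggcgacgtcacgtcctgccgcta
The Wbp11 window held 4 CCAAT matches, and the windows of BC049715 and Strap held none. Of 32851 promoter windows of this length, 37.4% held at least 1. None of the 3 windows held a GC box (GGGCGG, in 35.7% of windows) or a TATA box (TATAAA, in 13.6%), searched on both strands. GC content was 48% for Wbp11, 37.3% for BC049715 and 59.7% for Strap, and Strap had 30 CpG sites against 14 and 4. These are reference sequences, and the sequence of the mice studied is not among the data used here.

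Levels are given as log2 intensity after quantile normalization, for 1 probe per gene. Wbp11, a nuclear protein of pre-mRNA splicing, stood in hippocampus at 14.64, 14.7, 14.58, 14.47 and 14.5 in the 5 3xTgAD mice. It stood at 13.75, 13.67 and 13.64 in WT, at 13.73 and 13.82 in JHT, and between 13.64 and 14.07 in the 5 3xTgAD-BKO mice. The 3xTgAD mice were all above the other 10, and the ranges of WT, JHT and 3xTgAD-BKO overlapped one another. The fitted difference was 0.99 ± 0.09 (SE) for 3xTgAD minus WT females and -0.79 ± 0.06 for 3xTgAD-BKO minus 3xTgAD. In brain without hippocampus the 3xTgAD range of 13.73 to 13.93 overlapped the range of the others, and the same differences were 0.29 ± 0.13 and -0.29 ± 0.09.

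BC049715, a transcribed gene without an assigned role, had the widest gap of the members in hippocampus. In hippocampus the 3xTgAD mice stood at 7.54, 7.3, 7.43, 7.01 and 7.61. The highest of the other 10 mice was 5.39, a 3xTgAD-BKO male. In brain without hippocampus the 3xTgAD mice lay between 7.15 and 7.39, WT at 4.18, 4.16 and 3.44 and JHT at 4.03 and 3.59. The 3xTgAD-BKO mice there were spread from 3.8 to 6.33, with 1 female at the top. With this probe, the brighter of 2, neither WT nor JHT was above background on any array of this tissue, so that the level in 3xTgAD females was at least 7.54-fold that in WT. Against 3xTgAD, 3xTgAD-BKO mice were lower by a fitted -2.34 ± 0.23 in hippocampus. In brain only 2 of 5 3xTgAD-BKO arrays were above background, and the fitted difference of -2.32 ± 0.26 rests on dim values.

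Strap, an adaptor of TGF-beta receptor signalling that also assembles with the SMN complex, went the other way and had almost no spread within 3xTgAD. That holds for the brighter of its 2 probes, and the other probe did not separate the mice. The 5 mice stood between 10.86 and 10.96 in hippocampus and between 11.04 and 11.12 in brain without hippocampus. All other mice stood between 11.93 and 12.59 in hippocampus and between 12.16 and 12.64 in brain. The difference of 3xTgAD minus WT females was -1.21 ± 0.12 and -1.35 ± 0.09, and that of 3xTgAD-BKO minus 3xTgAD was 1.29 ± 0.08 and 1.42 ± 0.07, in hippocampus and brain respectively.

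Dera, an aldolase that breaks down deoxyribose phosphate, starts next to Strap and was higher in 3xTgAD. In hippocampus 3xTgAD mice had 7.64 ± 0.18 (SD, n = 5), WT 5.51 ± 0.08 (n = 3), JHT 6.08 ± 0.13 (n = 2) and 3xTgAD-BKO 6.13 ± 0.24 (n = 5). In brain without hippocampus the means were 8.07 ± 0.07, 6 ± 0.19, 6.15 ± 0.05 and 6.54 ± 0.28. No 3xTgAD mouse overlapped any other mouse in either tissue. Within hippocampus the 5 3xTgAD-BKO mice, at 5.77 to 6.44, were all above the 3 WT mice, at 5.43 to 5.59.

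Pde6h, the inhibitory subunit of the cone phosphodiesterase, was dim throughout. In hippocampus 3xTgAD mice stood at 4.44 to 4.8 and all others at 5.55 to 6.18. The groups overlapped in brain without hippocampus, at 4.57 to 5.31 against 4.8 to 5.92. The tissue difference of 3xTgAD-BKO minus 3xTgAD for this gene was 0.77 ± 0.22 and did not pass limma's test (adjusted p = 0.384).

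Pik3c2g, a class II phosphoinositide kinase, lies at the distal end of these members. In brain without hippocampus 3xTgAD mice stood at 5.84, 5.74, 6.2, 6.02 and 5.9, all above background. The others stood between 3.83 and 5.32. In hippocampus 4 of 5 3xTgAD arrays and none of the 10 others were above background, so that 3xTgAD was at least 2.42-fold the others by this probe. The other Pik3c2g probe overlapped in both tissues, with a difference of 0.21 in hippocampus, where it was above background on 3 3xTgAD and 5 other arrays, and of 0.51 in brain.

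**Figure D1:**
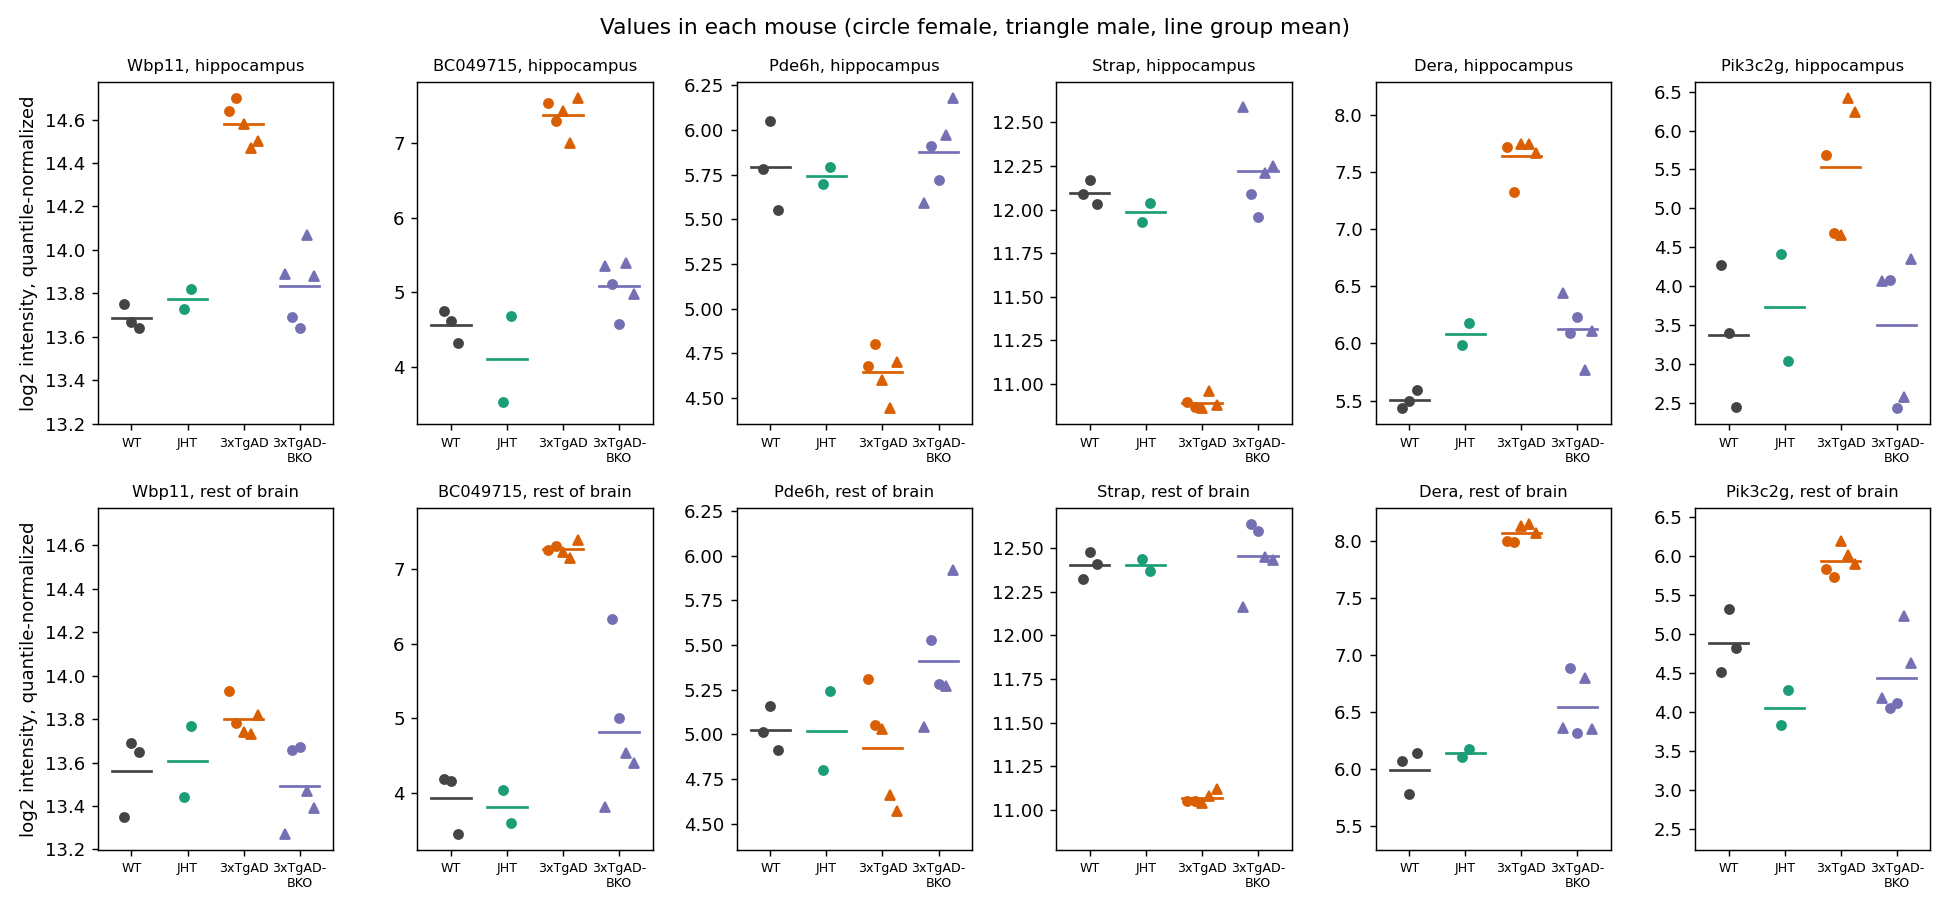
Level of 6 members (log2 intensity, quantile-normalized) in each mouse, by genotype, in hippocampus (top) and brain without hippocampus (bottom), with a line at each group mean. In hippocampus the 5 3xTgAD mice stood apart from the other 10 in all 6 panels, with none of those 10 above background for Pik3c2g. WT, JHT and 3xTgAD-BKO lay nearer each other, though for Dera in hippocampus WT was below JHT and 3xTgAD-BKO. In brain Wbp11 and Pde6h overlapped, and 3xTgAD-BKO was widely spread for BC049715.

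Eps8 and Klra1 were called between genotypes without reaching that separation. Eps8, an actin-capping substrate of growth factor receptors, was lower in 3xTgAD in brain without hippocampus, at 11.24 to 11.48 against 11.5 to 11.99. Its difference of 3xTgAD-BKO minus 3xTgAD was 0.45 ± 0.07 there. In hippocampus it was 0.43 ± 0.19, where the 3xTgAD-BKO male whose array stood apart read 12.3 and the other 4 at 11.1 to 11.44. Klra1, an inhibitory receptor of NK cells at the other end of the stretch, was lower in 3xTgAD-BKO. Its means in hippocampus were 7.36 ± 0.58 in 3xTgAD, 6.62 ± 0.23 in 3xTgAD-BKO, 7.14 ± 0.36 in WT and 7.1 ± 0.09 in JHT. In brain they were 6.82 ± 0.36, 5.97 ± 0.21, 6.73 ± 0.45 and 6.85 ± 0.07. So by group mean 3xTgAD-BKO stood lowest for Klra1 in both tissues, but WT and JHT were all female. In hippocampus the 3xTgAD females, at 7.84 and 8.05, were above every other mouse, and the 3xTgAD males stood at 6.6 to 7.2. The fitted 3xTgAD minus WT females was 0.8 ± 0.24 in hippocampus and 0.44 ± 0.24 in brain, neither called. Of 5 NK and T cell markers, Ncr1 and Klrb1c were above background on no array, and the summed level in hippocampus ranged from 10.75 to 11.03 in 3xTgAD and from 10.81 to 11.37 in 3xTgAD-BKO.

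By the model's call (adjusted p under 0.05 over 36717 genes and transcripts), 5 members differed between 3xTgAD and WT females in hippocampus and 3 in brain without hippocampus, beside 0.746% and 1.15% of all genes. Between 3xTgAD-BKO and 3xTgAD it was 6 members in each tissue, beside 1.02% and 2.64%. Without the male whose hippocampus array stood apart it was 5 in hippocampus, where Klra1 was no longer called (-0.77). The Wbp11, BC049715, Strap and Dera differences were then -0.77, -2.37, 1.23 and -1.58. The Klra1 call was also lost without 3xTgAD replicate 3 or 5 or 3xTgAD-BKO replicate 9, and with scaling to the 75th percentile. It was kept without 3xTgAD replicate 4 or 3xTgAD-BKO replicate 8. Between JHT and WT females limma called 0 members in either tissue, beside 0.0926% and 0.161% of all genes, with 10 and 7 members at an unadjusted p under 0.05, beside 7.83% and 6.31%. These contrasts chose the stretch, so the counts describe it and test nothing. The comparisons share mice, since the same 3xTgAD females enter the first and the second. Side by side, Strap read -1.21, 1.29 and -0.11 in hippocampus for 3xTgAD minus WT, 3xTgAD-BKO minus 3xTgAD and JHT minus WT. Dera read 2.02, -1.49 and 0.58, and Wbp11 read 0.99, -0.79 and 0.09. BC049715 read 2.85 and -2.34 in the first and the second, and was above background on no JHT hippocampus array.

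**Figure D2:**
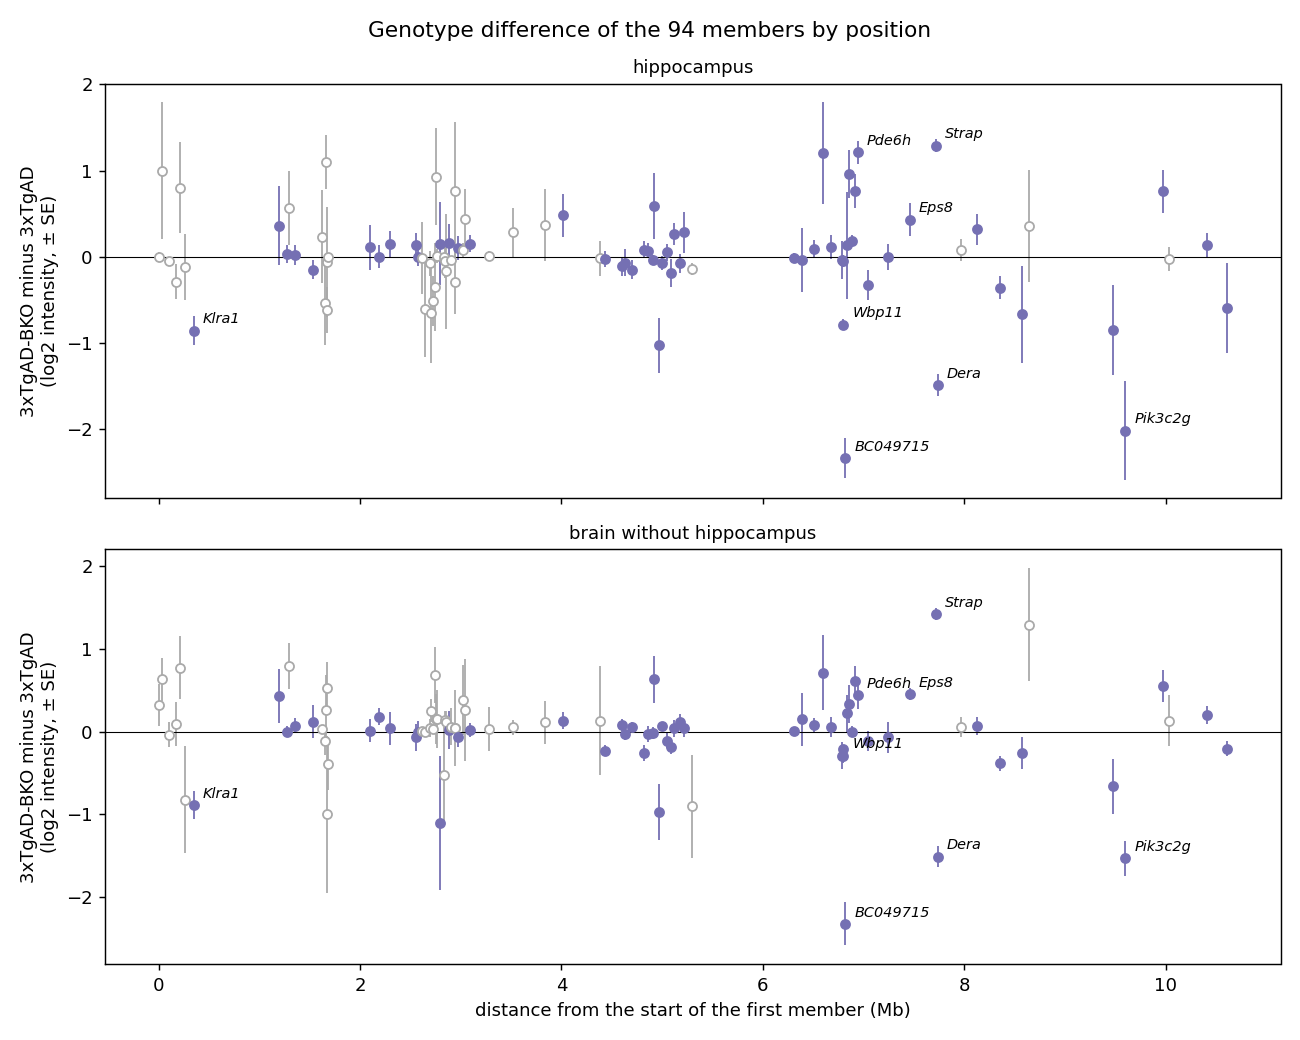
Fitted difference of 3xTgAD-BKO minus 3xTgAD (log2 intensity, bars SE) of the 94 members against the distance from the start of the first member, filled where the member was above background in a group and open where it was not. The members called between genotypes, other than Klra1, lay between 6.8 and 9.6 Mb, with differences of both signs next to each other.

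The median size of the difference of 3xTgAD-BKO minus 3xTgAD over members above background was 0.43 in hippocampus and 0.29 in brain for the 27 members that start more than 6 Mb into the stretch. It was 0.12 and 0.07 for the 30 before it, 0.12 and 0.11 over the 10 Mb that precede the stretch, 0.1 and 0.08 over the genes that follow it, and 0.12 and 0.11 over all genes with a symbol. The point at 6 Mb was set after the values were seen. Among genes above background in a group, the one just inside the proximal edge for which a difference is given was Klra1 at -0.86 in hippocampus, and just outside were Clec1a at -0.16 and Gabarapl1 at -0.07. Just inside the distal edge were Plekha5 at 0.13 ± 0.14 and Aebp2 at -0.6 ± 0.52, and just outside were Slco1c1 at 0.23 ± 0.27 and Slco1a4 at 0.4 ± 0.23. In brain the genes outside read -0.43 for Clec1a, -0.06 for Gabarapl1, 0.05 for Slco1c1 and 0.57 for Slco1a4, and those inside -0.89 for Klra1, 0.2 for Plekha5 and -0.21 for Aebp2. Elsewhere on chromosome 6, 6 genes separated 3xTgAD from all other mice in a tissue by the same measure, namely Slc25a13, Podxl, Inmt, Nat8f5, Fbln2 and Clec4a1, the nearest at 122.92 Mb.

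The mice lay on 4 slides, so the genotype differences were also read within a slide. On the slide that held all 5 3xTgAD hippocampi and 3 of the 3xTgAD-BKO hippocampi, the differences were -0.84 for Wbp11, -2.37 for BC049715, 1.32 for Strap, -1.39 for Dera and 1.1 for Pde6h. On the slide with the brains of all 5 3xTgAD mice and 3 3xTgAD-BKO mice they were -0.2, -1.98, 1.5, -1.4 and 0.43. With slide as a block in the model, 11 and 8 members were called between 3xTgAD and WT in hippocampus and brain, and 17 and 15 between 3xTgAD-BKO and 3xTgAD. Of all genes, 8.88%, 3.08%, 11.3% and 6.05% were then called. In hippocampus that block rests on the 3xTgAD-BKO males, with replicate 0, the array that stood apart, against replicates 8 and 9. In brain it rests on single arrays of the same males. Within the slides the ranges did not overlap in these 10 readings except for Pde6h in brain. WT and 3xTgAD shared no slide, so slide and genotype cannot be told apart in that contrast except through the 3xTgAD-BKO males.

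Probes of the same gene did not always move together, which is the feature of these members that the choice by gene does not show. At the level of probes, 7 of 66 member probes in hippocampus separated 3xTgAD from all other mice by at least 1 log2 unit, beside 0.559% of all probes of genes with a symbol. The count was 7 of 69 in brain without hippocampus, beside 0.616%. Nothing is read from these shares, since the same contrast chose the stretch and the probes already read by gene are among them. The probes fell on H2aj, BC049715, Pde6h, Strap and Dera, and in brain also on Pik3c2g. Of the 94 members 28 have more than 1 probe, and 14 of them have at least 2 probes above background on all arrays of a tissue.

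For Strap the brighter probe carried the whole difference. The dimmer Strap probe, at 10.89 to 11.21 in 3xTgAD and 10.93 to 11.37 in the others in hippocampus, overlapped throughout, with a difference of -0.05 against -1.24 for the brighter probe. In brain the 2 probes read -0.13 and -1.36.

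H2aj, a variant of histone H2A, was outside the naming rule and was looked at after its values were seen. Its brighter probe read 15.15 to 15.21 in 3xTgAD and 14.98 to 15.34 in the others in hippocampus. Its dimmer probe stood at 8.39, 8.58, 8.82, 9.03 and 8.82 in 3xTgAD and between 9.97 and 10.59 in the others, a difference of -1.57. In brain the dimmer probe differed by -1.11 and the brighter by 0.2, both without overlap and with opposite signs.

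Eps8 also had probes of opposite sign. In brain the brighter probe was lower in 3xTgAD by -0.36 and the dimmer probe was higher by 0.86, and neither overlapped the other mice. In hippocampus the differences were -0.24 and 1.17, and both overlapped. Which direction Eps8 transcript took in 3xTgAD therefore depended on the probe.

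BC049715 and Pde6h kept 1 direction in both probes. The dimmer BC049715 probe read 6.92 to 7.59 in 3xTgAD and 3.63 to 4.93 in the others in hippocampus, and 3xTgAD females were at least 7.43-fold WT, in which no array was above background. In brain 1 JHT array was above background for it, at 5.4. The dimmer Pde6h probe was above background on none of the 5 3xTgAD hippocampus arrays and on all 10 others, so that the others were at least 3.56-fold 3xTgAD. In brain it stood at 2.35 to 4.67 in 3xTgAD and 5.07 to 6.52 in the others, a separation that the brighter probe did not show. Arhgdib, likewise named after its values were seen, had a brighter probe lower in 3xTgAD hippocampus (10.18 to 10.52 against 10.56 to 11.82) and a dimmer probe that differed by -0.05. The positions of the probes within the transcripts are not in the files used here, and how strain sequence or exon use enters each probe was not tested.

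**Figure D3:**
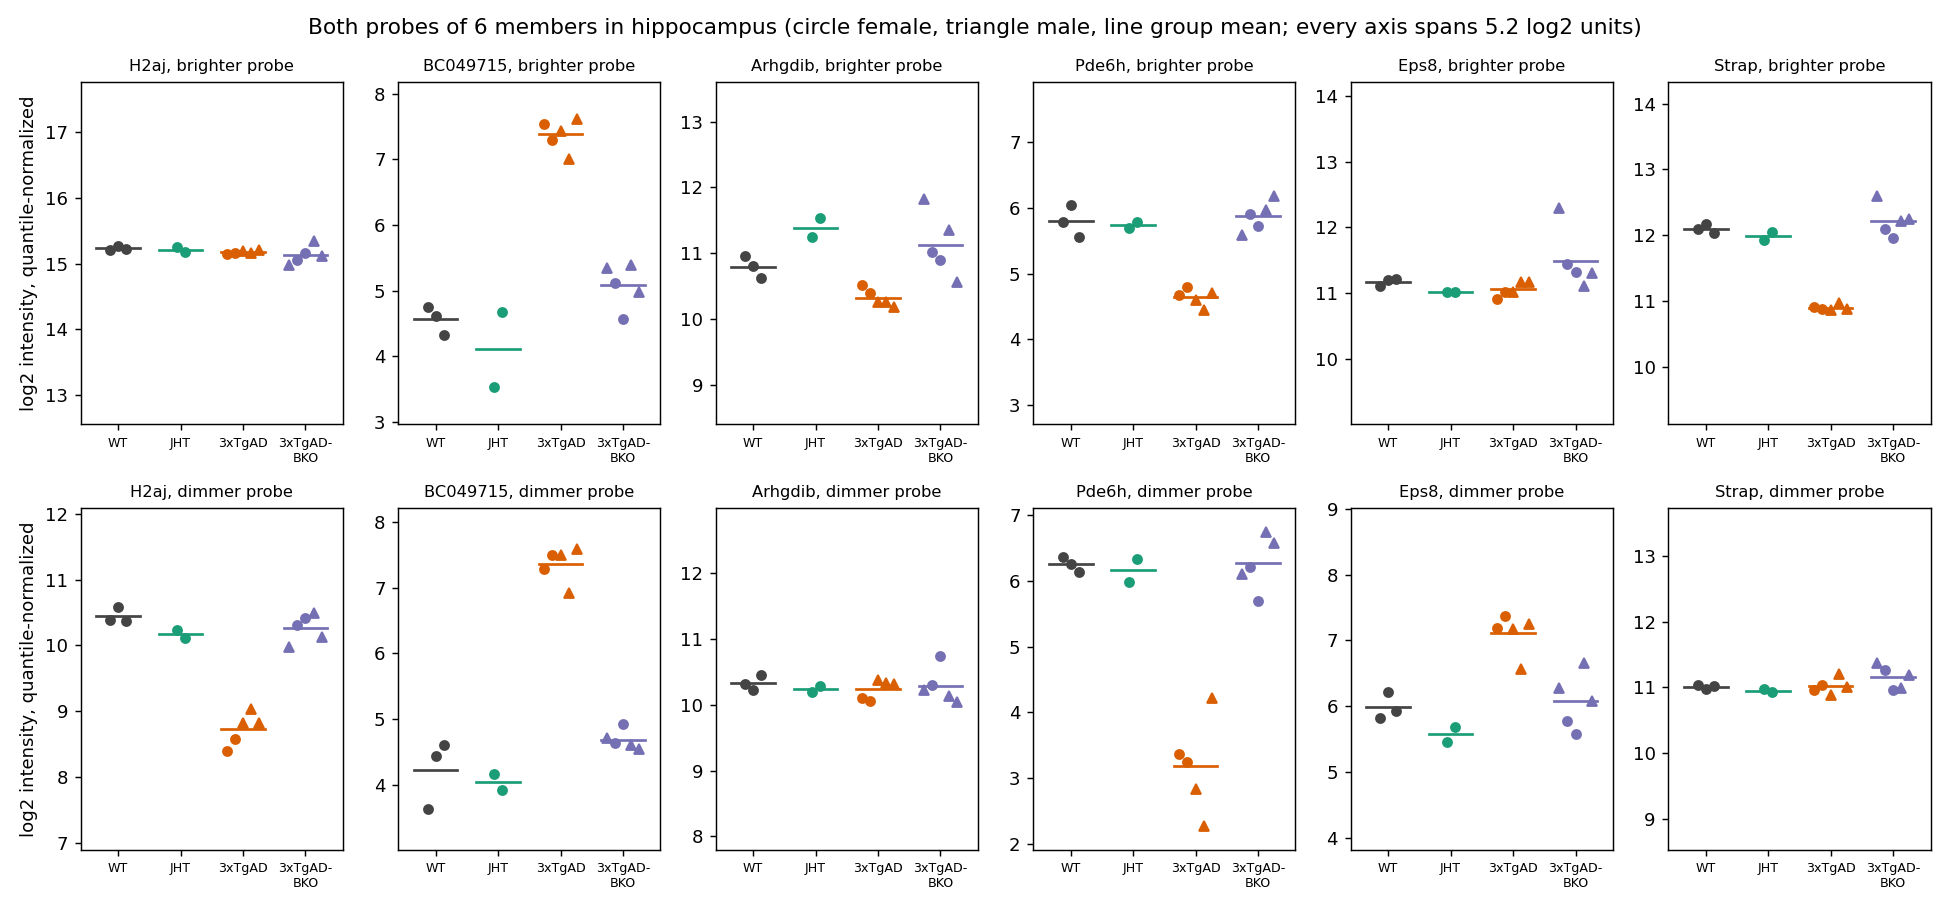
Both probes of 6 members in hippocampus (log2 intensity, every axis 5.2 log2 units long) in each mouse by genotype, brighter probe on top. The probes of BC049715 and of Pde6h agreed in direction, while 1 of the 2 probes of H2aj, Arhgdib and Strap was level across genotypes and the dimmer Eps8 probe was higher in 3xTgAD.

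Sex was not used in choosing the members and was tested. Between males and females of the 3xTgAD and 3xTgAD-BKO groups limma called 0 of 94 members, beside 0.098% of all genes, and 4 had an unadjusted p under 0.05, beside 7.76%. The difference of 3xTgAD-BKO minus 3xTgAD was called different between the sexes for 0 members in hippocampus, beside 0.0245% of all genes, and for 0 in brain, beside 0.101%. At an unadjusted p under 0.05 it was 17 and 13 members, beside 21.2% and 8.75% of all genes. In hippocampus 2 of the 3 3xTgAD-BKO males lay on another slide than the females, so sex and slide are partly mixed there. With slide as a block, 10 members were called in hippocampus, beside 13.4% of all genes. For Wbp11 the female difference was below the male difference by -0.44 ± 0.13 in hippocampus (limma, adjusted p = 0.0911), and for Klra1 by -1.14 ± 0.34 (adjusted p = 0.101). Between tissues the difference of 3xTgAD-BKO minus 3xTgAD was called different for 0 members, beside 0.0899% of all genes, and 3 had an unadjusted p under 0.05, beside 6.03%. Strap differed between tissues by -0.13 ± 0.1, Dera by 0.01 ± 0.18 and BC049715 by -0.02 ± 0.35. For Wbp11 it was -0.49 ± 0.11 (adjusted p = 0.119), on means of 14.58 in hippocampus and 13.8 in brain for 3xTgAD.

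The members also differed between the tissues themselves. Of the 94 members limma called 48 between hippocampus and brain without hippocampus, 31 higher and 17 lower in hippocampus, which is near the 51.1% of all genes called. Scaling to the 75th percentile in place of quantile normalization called 68 members, moved the median of all genes by 0.28 towards hippocampus, and took the share of higher calls over all genes from 49.1% to 69.5%. None of the 12 members named here for their tissue difference changed sign under it. The dissections matched their labels, since hippocampal Prox1, C1ql2, Neurod6 and Zbtb20 were higher in hippocampus by 2.33, 3.59, 2.79 and 2.01 log2 units and striatal Drd1, Adora2a, Ppp1r1b and Rgs9 were lower by -2.62, -3.34, -1.96 and -2.56.

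H4f16, a histone H4 gene, had the highest rise among members above background on every array of a tissue, with a tissue difference of 1.12 ± 0.12 (limma, adjusted p = 6.6e-08). Hebp1, a heme-binding protein, stood at 12.77 ± 0.28 in hippocampus and 11.79 ± 0.18 in brain (SD, 15 mice each, limma adjusted p = 1.86e-10). Lmo3, a LIM-domain cofactor of transcription, stood at 12.27 ± 0.24 and 11.32 ± 0.23 (adjusted p = 1.02e-10). All 3 were higher in hippocampus in 15 of 15 mice, and the tissues did not overlap for Hebp1 and Lmo3. Erp27, a chaperone of the endoplasmic reticulum, read 10.74 ± 0.1 against 9.93 ± 0.1, and Lrp6, a coreceptor for Wnt, 11.83 ± 0.14 against 11.14 ± 0.16. Tas2r113 rose by 0.84 ± 0.14 with overlapping tissues.

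Cdkn1b and Dusp16 were lower in hippocampus in 15 of 15 mice, with no overlap. Cdkn1b, an inhibitor of cyclin-dependent kinases, stood at 12.04 ± 0.12 against 12.71 ± 0.12 (limma, adjusted p = 3.77e-12). Dusp16, a phosphatase of MAP kinases, stood at 9.93 ± 0.16 against 10.65 ± 0.11 (adjusted p = 6.18e-10). The difference of Dusp16 was -0.11 when its probes were averaged (adjusted p = 0.529). Lockd, a long non-coding RNA next to Cdkn1b, was above background on 7 hippocampus arrays and on all 15 brain arrays. Art4, the ADP-ribosyltransferase of a blood group, was above background on 5 and 15, so that its fitted tissue difference of -1.98 ± 0.28 rests on dim values in hippocampus. Mgst1, a glutathione transferase, and Mgp, a matrix inhibitor of calcification, were lower by -0.69 ± 0.09 and -0.65 ± 0.15, in 14 of 15 mice each. With slides as a random block the Mgp difference was -0.58 and no longer called (adjusted p = 0.11). In whole tissue, fewer cells of a type and less RNA per cell cannot be told apart.

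**Figure D4:**
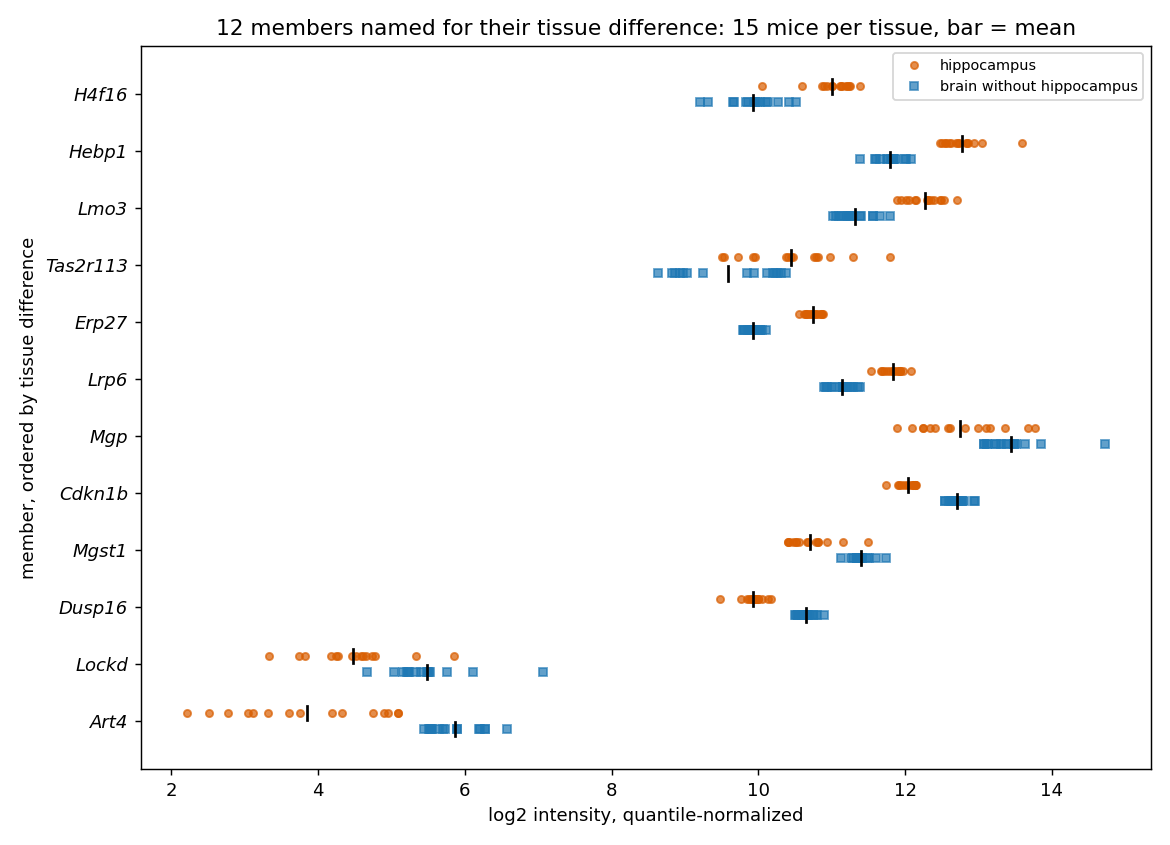
Level (log2 intensity, quantile-normalized) of the 12 members named for their tissue difference, with 1 point per mouse and tissue and a bar at each mean over 15 mice. The tissues did not overlap for Hebp1, Lmo3, Erp27, Lrp6, Cdkn1b, Dusp16 and Art4.

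The gene clusters of the stretch were mostly not above background, apart from the salivary proline-rich group. Their counts stand beside 0.0926% to 2.64% of all genes called in the genotype contrasts and 51.1% between the tissues, and lists this short could hold 0 genotype calls at those shares. Of 8 Klra members 2 were above background in a group and 1 was called in a genotype contrast, Klra1. Of 24 Tas2r members 3 were above background in a group, Tas2r113, Tas2r109 and Tas2r117, and 0 were called between genotypes. Tas2r113 and Tas2r109, above background on all 30 arrays, were higher in hippocampus than in brain by 0.84 and 0.5 (limma, adjusted p = 2.17e-05 and 1.17e-05). By the brightest probe, all 4 salivary proline-rich members, Prpmp5 and Prh1 among them, were above background on all arrays. They rose in hippocampus relative to brain (median 0.49) and had 0 genotype calls. Another Prpmp5 probe was above background on no array, and the other Prb1 probe on none in hippocampus and 2 in brain. The remaining Prpmp5 and Prh1 probes were above it on all arrays.

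Of 13 transcription, chromatin and RNA factors, all above background, 7 rose and 4 fell in hippocampus relative to brain, beside 51.1% of all genes called. Among genotype contrasts the only calls in this list were for Wbp11 and Strap, and Ybx3 and Crebl2, for example, read 0.02 and 0.08 for 3xTgAD-BKO minus 3xTgAD in hippocampus. Of 16 cell cycle and signalling genes, 4 rose and 4 fell in hippocampus, near the same 51.1%. The genotype calls among them were for Pde6h, Eps8 and Pik3c2g, from contrasts in which 0.746% to 2.64% of all genes were called. Of 9 receptors and membrane proteins 0 were called between genotypes, with Fam234b and Gpr19, for example, at -0.08 and 0.07. Of 8 enzymes and matrix genes Dera alone was called between genotypes, while 3 rose and 3 fell in hippocampus, beside 51.1% of all genes called. Eif4a3l1, a helicase-like gene next to a gene that was left out, stayed between 12.42 and 12.65 in all 30 arrays.

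Plbd1, a lysosomal phospholipase-like protein, varied widely between single mice. In hippocampus it stood at 9.14 and 9.94 in JHT and at 6.56, 5.9 and 6.04 in WT. In brain JHT stood at 8.48 and 10.52 and WT at 7.86, 7.45 and 7.6. The 3xTgAD-BKO mice ranged from 6.56 to 9.91 in hippocampus, with the male whose hippocampus array stood apart highest in both tissues, and 3xTgAD from 6.35 to 7.98. Both JHT mice were above all WT mice in each tissue, and the difference of 3.38 ± 0.84 in hippocampus was not called. The summed level of the choroid plexus markers Ttr, Folr1, Kl and Clic6 in hippocampus was 18.24 and 17.79 in JHT and 10.54, 12.36 and 12.51 in WT, and 12.58 in the 3xTgAD-BKO male with the highest Plbd1. A 3xTgAD-BKO female with markers at 18.36 had Plbd1 at 8.32, and in brain the markers were 16.47 and 16.81 in JHT and 16.39 to 17.1 in WT. Their part in the Plbd1 difference was not tested. Klra2, Tas2r117 and E330021D16Rik, which the rule for named genes also takes, passed the filter on dim probes only through the group in which they were high, so their differences between genotypes are not described. They are among the points of the plot by position and the medians over members above background. In the comparison of 3xTgAD with all other mice BC049715, Pde6h and Pik3c2g also passed only in that way, and their values are to be read with that limit.

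Of the summed cell type markers, only the endothelial ones set 3xTgAD apart from all other mice. The summed level of the endothelial markers Cldn5, Pecam1, Flt1 and Ly6c1, all above background on every array, was 14.6 to 14.98 in 3xTgAD hippocampus and 15.13 to 15.65 in all other mice. In brain it was 14.89 to 15.3 against 15.37 to 16.19. Its part in the differences of the members was not tested. Apold1, a gene of activated endothelium, read -1.03 ± 0.32 and -0.97 ± 0.34 for 3xTgAD-BKO minus 3xTgAD in hippocampus and brain and was not called. Neuronal markers ranged from 17.94 to 18.15 in 3xTgAD and from 17.83 to 18.06 in the other mice in hippocampus. Microglial markers in brain ranged from 14.98 to 15.24 in 3xTgAD-BKO, from 14.89 to 15.06 in 3xTgAD and from 14.9 to 14.94 in WT and JHT. In hippocampus they overlapped. Of the B cell markers, Cd79a was above background on no array and Ms4a1 on 2 of 30, while Cd79b was above it on 29. The lack of B cells in JHT could not be checked from these markers in these tissues.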

How the data were processed

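Total RNA of hippocampus and of brain without hippocampus from 15 mice was labelled with Cy3 and hybridised to 30 Agilent arrays, read by the authors with Feature Extraction 12.0.3.1. The deposited scanner files hold intensity values per spot (gProcessedSignal, already background-corrected, and the median pixel and background intensity). The deposited value table holds scores, which matched log10 intensity centred and scaled within each array (r = 1 on every array), and was used as an alternative. Control spots and outlier flags were left out, spots of a probe were averaged, log2 values of the deposited intensity were quantile-normalized, and the probe with the highest mean represented a gene, as the methods state. This gave 36717 genes and transcripts from 55681 probes. Accessions were matched to RefSeq (GRCm38.p6). Groups came from the sample titles. limma 3.58.1 in R 4.3.3 was fitted over all genes with a mean per group of genotype and sex, within each tissue (15 arrays) or over both (30 arrays), with Benjamini-Hochberg adjustment and a threshold of 0.05. The code was tested on simulated data. Where the text says above background, Feature Extraction's well-above-background flag was set. A bound ("at least") sets the bright group's mean against the higher of each dim value and the lowest signal above background on that array.

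The members and gene lists were chosen with earlier results of these data known, so limma's calls in the genotype contrasts are a description and no p-value is given for them. Differences of those contrasts between sexes or tissues were tested. Members were named when called between genotypes, when groups did not overlap by at least 1 log2 unit, or as the 6 with the largest tissue difference in each direction among those called and above background on every array of a tissue. The labels give single mice, so the spread is between mice. Each mouse gave both tissues. The deviations of its arrays from their group means correlated over 19491 genes with a median r of 0.105, and the mouse was a replicate block in an alternative. Alternatives covered scaling, background correction, a filter on dim probes, averaging of probes, slide, the deposited scores, each sex alone and each mouse left out. The 3 genes left out by the rule, 1 marker and 1 allele are not reported here. Precision is limited by the number of arrays, with 2 to 5 per group.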

Additional observations from a re-analysis of the deposited data

Results flagged for a closer look

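On the log2 intensity scale, in 10 of 91 groups of 5 mice tested among the named members, 1 mouse stood far from the other 4, where chance gives about 1 in 20. In hippocampus, Tas2r117 was 7.33 in 1 3xTgAD-BKO male (next 5.14), Tas2r113 was 11.8 in another (next 10.79), and Eps8 was 12.3 in that same mouse (next 11.44), whose hippocampus array had 432 outlier spots against 102 to 160 on all other arrays. Dusp16 was 9.48 (next 9.91) in the 3xTgAD-BKO male that stood apart for Tas2r117. One 3xTgAD male stood apart in hippocampus for 3 members, with Plbd1 at 7.98 (next 6.64), H4f16 at 10.05 (next 11.01) and Mgst1 at 10.93 (next 10.51). Its summed choroid plexus markers were 18.46 on the log2 scale, beside 17.79 to 18.36 in 3 other mice and 10.54 to 14.61 in the rest, and their part in these values was not tested. Dera was 7.33 in 1 3xTgAD female (next 7.67). In brain without hippocampus, Tas2r113 was 8.93 in 1 3xTgAD-BKO female (next 10.12) and Plbd1 was 8.38 in 1 3xTgAD female (next 7.54).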

How the results depend on the processing

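The number of members called moved most with slide as a block. Only the 3xTgAD-BKO males lay on more than 1 slide of a tissue. In hippocampus that term thus sets replicate 0, the array with 432 outlier spots, against replicates 8 and 9, and in brain it rests on single arrays. With slide as a block, 11 members were called for 3xTgAD minus WT in hippocampus (5 without it) and 8 in brain (3 without it), 17 and 15 for 3xTgAD-BKO minus 3xTgAD (6 and 6 without it), and 10 for the sex difference of the latter in hippocampus (0 without it), with 3260, 1131, 4152, 2221 and 4906 of all genes called. With slide as a random block, 27 members were called between the tissues (48 without it). The filter on dim probes called 1 member for the sex difference in hippocampus, with 1041 of all genes called (9 without it). Scaling to the 75th percentile called 68 members between the tissues, moved the median of all genes by 0.28 and the share of higher calls from 49.1% to 69.5%. With the mouse as a replicate block, 49 members were called between the tissues and the block changed no other count of members. For 3xTgAD-BKO minus 3xTgAD in brain, Eps8 changed sign, at -0.2 when its probes were averaged and -0.87 when the dimmer probe was read alone. Klra1, Pde6h, Strap, BC049715, Eps8, Dusp16 and Mgp each lost a call under at least 1 setting, BC049715 in females alone (-1.62) and Eps8 in males alone (0.32), both in brain.

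Leaving out 1 mouse of a group of 2 left a single mouse there, so counts that rest on those fits are not given. Leaving out each WT mouse (named by its replicate number) gave 0 members for JHT minus WT in hippocampus. In brain it gave 0 or 1 (1 without WT 11, with 76 of all genes called against 59). For 3xTgAD minus WT in hippocampus it gave 4 to 5. Leaving out each male gave 5 to 6 for 3xTgAD-BKO minus 3xTgAD in hippocampus. With each male left out, the sex difference ranged from 0 to 1 in hippocampus and reached 3 in brain (without 3xTgAD-BKO 8, with 321 of all genes called against 37). With any mouse left out, the tissues gave 45 to 50 and the tissue difference of 3xTgAD-BKO minus 3xTgAD 0 to 1, ranges that include fits with a single mouse in a group. The cause was not tested. The number of arrays and the 2 mice in some groups limit what could be detected.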
